A study of Mus musculus with 6 samples.

Results

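The 10 genes *Chac1*, *Atf4*, *Ddit3*, *Trib3*, *Asns*, *Atf3*, *Atf5*, *Sesn2*, *Ppp1r15a* and *Psat1* are read-outs of the integrated stress response. They were measured by 12 probes of the 55681 on the array and make up 10 of the 13702 genes tested in the tibialis anterior (TA) muscle of dystrophic mice. The genes were listed by name, and every probe assigned to a RefSeq transcript of one of them was taken. *Chac1* was selected on its log2 ratios on these same arrays, and the other genes were added as its pathway. The values of all 10 are therefore given as a description, without a test of the members.

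In the integrated stress response, kinases that sense amino acid shortage, misfolded protein, double-stranded RNA or heme deficiency phosphorylate the translation factor eIF2. Most protein synthesis then slows, while the mRNA of the transcription factor Atf4 is translated better, and Atf4 with partners such as C/EBP proteins and Ddit3 switches on genes for amino acid synthesis, transport and glutathione breakdown. In skeletal muscle the pathway is known from fasting, mitochondrial disease and other stresses on the myofiber.

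RNA came from 3 *mdx* and 3 N1ICD-*mdx* mice, 9 months old, on a mixed 129 and C57BL/6 background and fed regular chow. All 6 mice carried the *mdx* mutation and so lacked dystrophin. In N1ICD-*mdx* mice the muscle creatine kinase promoter also drove Cre (MCK-Cre), which turned on the intracellular domain of Notch1 from the Rosa26 locus in myofibers. Each of 3 two-color arrays paired an *mdx* sample (Cy3) with the N1ICD-*mdx* sample of the same number (Cy5), and the labels describe them as biological replicates. The dyes were never swapped, so dye and genotype cannot be told apart.

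Ratios are log2 of N1ICD-*mdx* over *mdx* signal within an array, and levels are normalized log2 signals of 1 muscle. The ratios of array 2 were the widest, with an SD over all genes of 0.54 against 0.24 on each of the others. On array 2, 137 genes were at least 2-fold higher and 777 at least 2-fold lower in the N1ICD-*mdx* muscle, whereas the corresponding counts were 39 and 35 on array 1 and 39 and 27 on array 3. The muscle that stood apart was *mdx* replicate 2, whose levels correlated at 0.967 to 0.982 with the other 5 muscles, which correlated with each other at 0.987 to 0.994 across genes. Each member is therefore given on array 2 beside arrays 1 and 3. All 14 listed muscle fiber markers, *Acta1* and *Ckm* among them, were detected, that is, flagged well above background on every array for 1 or both dyes. Of the targets of Notch, *Nrarp* had ratios of 0.40, 0.26 and 0.19 and *Heyl* of 0.19, 0.54 and 0.60 on arrays 1, 2 and 3, so both were positive on every array. *Hes1* and *Hey1* were also positive on each, at 0.10 and 0.15 on array 2. *Hey2* and *Hes5*, also looked up, were not among the genes tested. An exchange of the muscles on array 2 would turn the sign of every ratio there, and whether one occurred was not tested. The *Notch1* probe had ratios of -0.12, -0.10 and -0.15, and whether it covers the transgene is not known.

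The promoters below are shown because they hold a sequence that Atf4 and C/EBP proteins are known to bind as a pair, TGATGNAA (N is any base), searched on both strands in the window from 250 bases before to 50 bases after each start site. It occurred in the windows of 4 of the 10 genes, which had 12 windows, and in 1304 of 32851 promoters of the same length in RefSeq (GRCm38.p6), or 3.97%. The genes were listed as members of the Atf4 pathway, so these counts are a description and not a test. Capitals mark the match, which in *Chac1*, *Atf3* and *Trib3* lies on the other strand and so is printed as its reverse complement.
*Chac1*, chr2:119350992-119351291, plus strand, match starting 193 bases before the start site: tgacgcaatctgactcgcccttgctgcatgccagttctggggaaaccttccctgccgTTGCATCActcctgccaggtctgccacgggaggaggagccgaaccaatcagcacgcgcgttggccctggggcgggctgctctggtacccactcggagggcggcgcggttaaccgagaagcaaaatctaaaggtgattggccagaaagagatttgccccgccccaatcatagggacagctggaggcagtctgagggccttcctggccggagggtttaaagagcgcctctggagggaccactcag
*Atf3*, chr1:191183284-191183583, minus strand, match starting 110 bases before the start site: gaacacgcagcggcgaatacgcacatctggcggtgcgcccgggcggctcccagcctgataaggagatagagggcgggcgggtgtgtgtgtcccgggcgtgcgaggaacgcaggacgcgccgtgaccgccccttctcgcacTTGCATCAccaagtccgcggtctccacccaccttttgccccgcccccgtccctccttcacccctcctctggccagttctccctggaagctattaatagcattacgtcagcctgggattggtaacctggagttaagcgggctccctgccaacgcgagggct
*Asns*, chr6:7693160-7693459, minus strand, match starting 23 bases before the start site: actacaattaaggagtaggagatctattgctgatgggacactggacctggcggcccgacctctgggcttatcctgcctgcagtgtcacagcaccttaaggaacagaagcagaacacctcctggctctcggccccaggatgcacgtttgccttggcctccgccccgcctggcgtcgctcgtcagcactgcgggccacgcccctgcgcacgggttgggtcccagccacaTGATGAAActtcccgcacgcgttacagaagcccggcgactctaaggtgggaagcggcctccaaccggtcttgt
*Trib3*, chr2:152344011-152344310, minus strand, match starting 14 bases after the start site: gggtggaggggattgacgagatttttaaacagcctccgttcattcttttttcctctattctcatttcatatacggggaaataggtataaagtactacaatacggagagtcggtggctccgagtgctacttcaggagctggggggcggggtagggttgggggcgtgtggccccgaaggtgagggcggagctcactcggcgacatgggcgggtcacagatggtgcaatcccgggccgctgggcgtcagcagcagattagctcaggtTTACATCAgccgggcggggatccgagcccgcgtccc
The cyclic AMP response element TGACGTCA, which Atf family proteins bind, was found in 1 member, *Ppp1r15a*, 12 bases before its start site, and in 588 promoters or 1.79% of all. The windows of *Atf4*, *Ddit3*, *Atf5*, *Sesn2* and *Psat1* held neither run of letters, and *Atf5* and *Psat1* each had a pair of windows. The 4 genes with TGATGNAA did not share a pattern on the arrays, since *Chac1* was higher in the N1ICD-*mdx* muscle of array 2, *Atf3* and *Asns* lower there and *Trib3* nearly equal.

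*Chac1*, whose enzyme breaks down glutathione in the cytosol, turned over between arrays more than any other gene. Its probe (NM_026929, chromosome 2) read 12.08, 10.79 and 13.32 on the log2 scale in *mdx* replicates 1, 2 and 3. In their N1ICD-*mdx* partners it read 9.82, 13.06 and 11.14. The 3 highest muscles were thus *mdx* replicates 3 and 1 and N1ICD-*mdx* replicate 2, and the groups overlapped. *Chac1* was 4.78-fold lower in the N1ICD-*mdx* muscle on array 1, 4.84-fold higher on array 2 and 4.50-fold lower on array 3.

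The log2 ratios of *Chac1* were -2.26, 2.27 and -2.17. Their SD of 2.59 ranked 1 among the 13702 genes, and their mean was -0.72 with a standard error of 1.03 (n = 3 arrays). The mean level was 12.06 ± 1.27 in *mdx* and 11.34 ± 1.63 in N1ICD-*mdx* muscles (SD, n = 3), a difference smaller than the spread within either group. Counted from the lowest ratio, *Chac1* ranked 2 on array 1 and 3 on array 3, and counted from the highest it ranked 5 on array 2. The *mdx* and N1ICD-*mdx* muscles together spanned 3.50 log2 units, or 11.3-fold.

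The turn was in the signals as scanned. The median signal of the *Chac1* spot in Cy3 was 5909.5, 1544.5 and 13202.5 over a local background of 45, 48 and 48. In Cy5 it was 790, 5987.5 and 2150.5 over 17, 17 and 18. Each array carried a single spot for the gene, and on all 3 arrays it was flagged well above background in both channels, was not saturated and was not an outlier. The processed signals of Feature Extraction gave -2.37, 2.34 and -2.17, and median centring gave -2.55, 2.19 and -2.36, so the sign on each array was the same under these scalings.

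**Figure D1:**
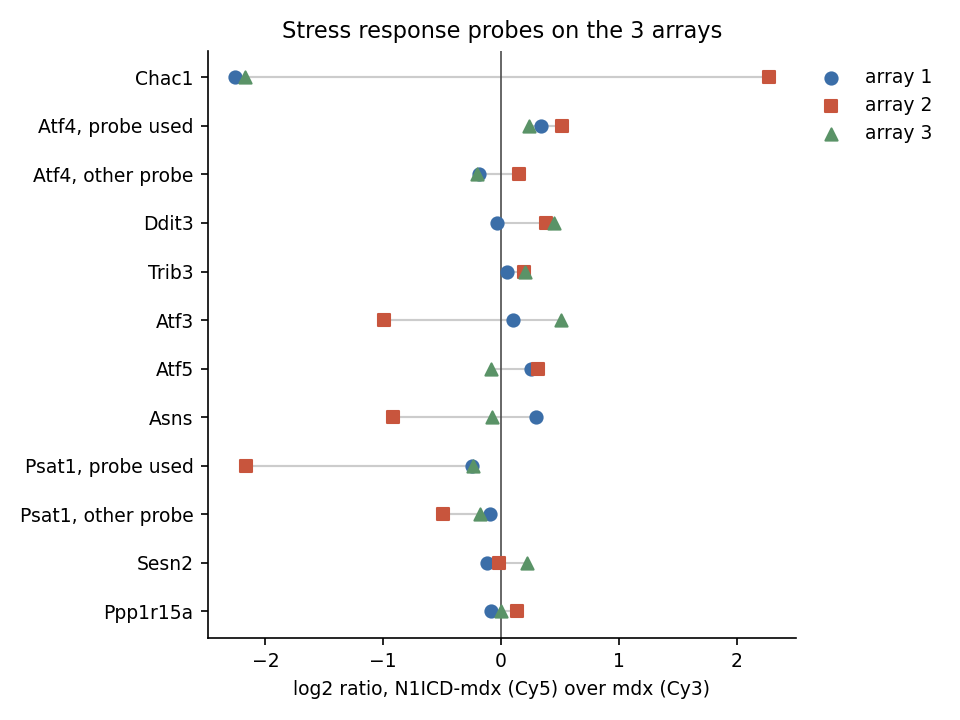
Log2 ratio of N1ICD-*mdx* (Cy5) over *mdx* (Cy3) muscle for each of the 12 probes of the 10 genes, with a circle for array 1, a square for array 2, a triangle for array 3 and a gray line over their range. *Chac1* lies at -2.26 and -2.17 on arrays 1 and 3 and at 2.27 on array 2, whereas *Psat1* (probe used) lies at -2.17 on array 2 and near -0.25 on the others.

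With arrays 1 and 3 alone the mean ratio of *Chac1* was -2.21. *Chac1* was listed because, with array 2 left out, it was among the 3 of 14216 genes (0.0211%) that limma put under an adjusted p of 0.05, beside *Cish* and *3300002I08Rik*. Since array 2 is the one on which it turned, that selection is no test of *Chac1*. The mean was 0.05 without array 1 and 0.01 without array 3. With all 3 arrays no gene passed that threshold in limma (0 of 13702, 0%), 890 genes had an unadjusted p under 0.05, and the methods' t-test with Benjamini-Hochberg adjustment also called 0.

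Genes with the shape of *Chac1* were few. Only *Chac1* and *Cish* were at least 2-fold lower on arrays 1 and 3 and at least 2-fold higher on array 2, and 0 genes had the mirror image. At 1.5-fold each way there were 10 such genes, *Cd209f*, *Chac1*, *Cish*, *Fbp2*, *Fbxo32*, *Lrtm2*, *Malat1*, *Parm1*, *Plcd4* and *Trim63*, against 4 in the mirror image. *Fbxo32* and *Trim63* encode the muscle ubiquitin ligases atrogin-1 and MuRF1, known for their part in atrophy.

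The 6 genes nearest to *Chac1* by Euclidean distance over the 3 ratios were *Cish*, *Lrtm2*, *Dcun1d1*, *Fbxo32*, *Pdk4* and *Malat1*, at distances of 1.44, 1.99, 2.05, 2.11, 2.27 and 2.41 log2 units. *Cish*, a suppressor of cytokine receptor signaling, had ratios of -2.60, 1.20 and -3.07, with levels of 10.52, 10.01 and 11.55 in the *mdx* and 7.92, 11.22 and 8.48 in the N1ICD-*mdx* muscles. *Fbxo32* had ratios of -1.06, 0.87 and -1.15. *Pdk4*, a kinase that holds back glucose oxidation in fasting muscle, had -0.18, 1.63 and -1.50. For each of the 6, as for *Chac1*, the 3 highest levels were in *mdx* replicates 1 and 3 and N1ICD-*mdx* replicate 2. The 6 were picked by their ratios, so this likeness follows largely from the choice. *Lrtm2* had ratios of -0.75, 1.82 and -0.96 and the noncoding RNA *Malat1* had -0.88, 0.72 and -0.95. For *Dcun1d1*, which acts in the modification of cullins by Nedd8, the probe used had -2.20, 2.23 and -0.12 but another kept probe had -0.48, -0.01 and -0.33, so the likeness rests on 1 probe.

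**Figure D2:**
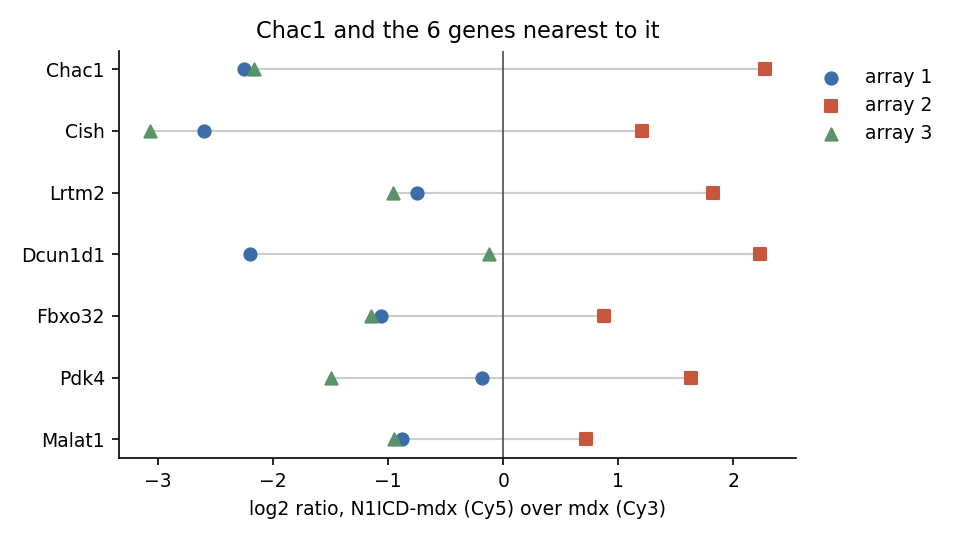
Log2 ratio of N1ICD-*mdx* over *mdx* muscle on array 1 (circle), array 2 (square) and array 3 (triangle) for *Chac1* and the 6 genes closest to it, nearest at the top. All 7 are below 0 on arrays 1 and 3 and above 0 on array 2, from 0.72 for *Malat1* to 2.27 for *Chac1*. The 6 were chosen by these ratios, so the shared signs are no separate result.

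The transcription factors and *Trib3* among the members differed by less than 1.5-fold in their means. *Atf4* (NM_009716, chromosome 15), its central factor, had levels of 13.27, 13.29 and 13.42 in the *mdx* and 13.61, 13.81 and 13.66 in the N1ICD-*mdx* muscles by its brighter probe. All 3 N1ICD-*mdx* muscles lay above all 3 *mdx* muscles. The ratios were 0.34, 0.52 and 0.24, with a mean of 0.37 ± 0.10 (standard error, n = 3), or 1.29-fold. The second *Atf4* probe did not show this, with ratios of -0.18, 0.16 and -0.20 and a mean of -0.08, and the mean over both probes was 0.14.

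*Ddit3*, which encodes the pro-apoptotic factor CHOP, had levels of 8.34, 8.33 and 8.37 in the *mdx* and 8.31, 8.71 and 8.83 in the N1ICD-*mdx* muscles. N1ICD-*mdx* replicates 2 and 3 were above every *mdx* muscle and replicate 1 below, and the mean ratio was 0.27 ± 0.13. *Trib3*, a pseudokinase that Atf4 induces and that restrains it, had levels of 7.17, 7.18 and 7.22 against 7.23, 7.38 and 7.42. The groups did not overlap, but the mean ratio was 0.15 ± 0.09 and became -0.03 with median centring. The levels of *Atf5*, a factor translated under stress much as Atf4 is, were 12.38, 12.45 and 12.64 in the *mdx* and 12.64, 12.76 and 12.55 in the N1ICD-*mdx* muscles. They overlapped, with a mean ratio of 0.16 ± 0.12.

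*Atf3*, an early stress factor of the same family, varied more among the *mdx* muscles than among the N1ICD-*mdx* muscles. It read 8.03, 9.30 and 7.55 in the *mdx* and 8.13, 8.30 and 8.06 in the N1ICD-*mdx* muscles. *mdx* replicate 2 was the highest of the 6 and *mdx* replicate 3 the lowest, and the groups overlapped. The ratios were 0.10, -0.995 and 0.51 and the mean was -0.13 ± 0.32, against 0.30 without replicate 2.

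**Figure D3:**
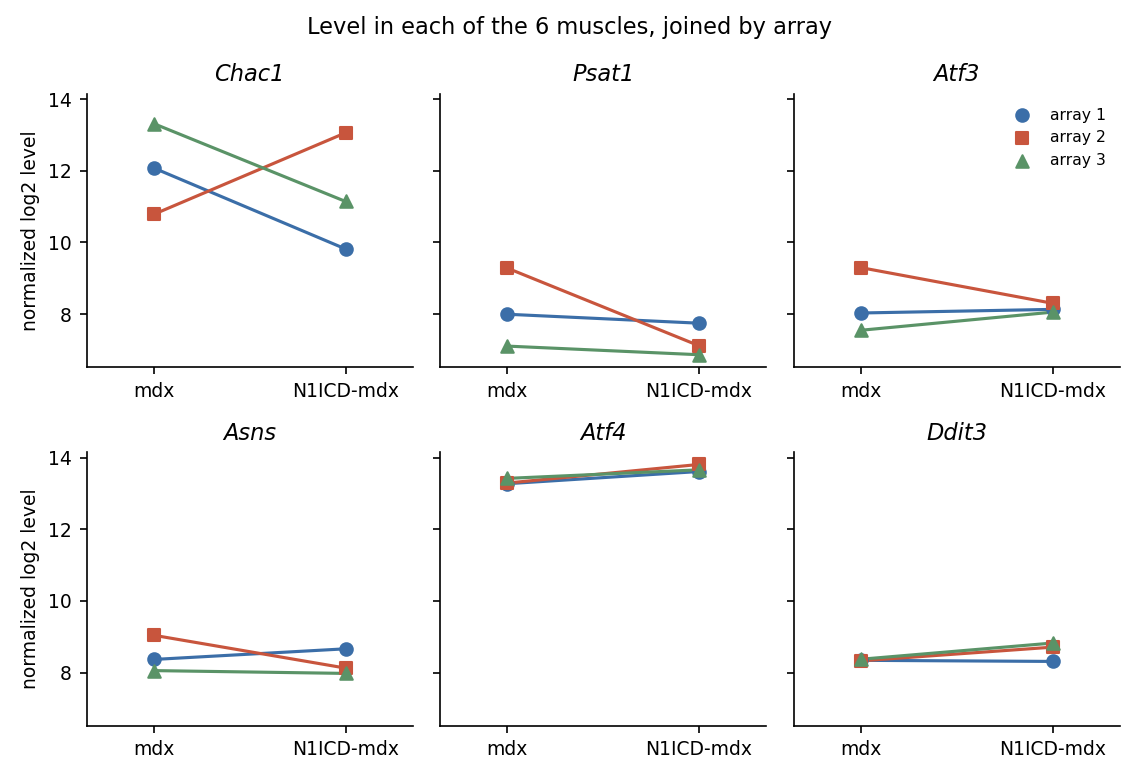
Normalized log2 level of 6 members in each *mdx* and N1ICD-*mdx* muscle, with lines joining the muscles of an array (circle, array 1; square, array 2; triangle, array 3); levels are to be read within a panel. *Chac1* is low and *Psat1*, *Atf3* and *Asns* are highest in *mdx* replicate 2, while *Atf4*, by its brighter probe, is higher in each N1ICD-*mdx* muscle than in any *mdx* muscle.

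The amino acid enzymes shared the high value in *mdx* replicate 2. *Psat1* (NM_001205339, chromosome 19), an aminotransferase of serine synthesis, had levels of 7.997, 9.28 and 7.11 in the *mdx* and 7.75, 7.12 and 6.87 in the N1ICD-*mdx* muscles by its brighter probe. The muscles of array 1 and array 3 differed little from their partners, with ratios of -0.25 and -0.24, whereas array 2 had -2.17, or 4.49-fold lower. The mean was -0.89 ± 0.45, and -0.25 without replicate 2. The other *Psat1* probe was dimmer and had -0.09, -0.49 and -0.18. By the processed signals of the scanner software the 2 probes had -2.89 and -1.58 on array 2, so the size there depended on the background correction.

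*Asns*, asparagine synthetase, read 8.37, 9.04 and 8.06 in the *mdx* and 8.66, 8.13 and 7.98 in the N1ICD-*mdx* muscles. Its ratios of 0.30, -0.92 and -0.08 gave a mean of -0.23 ± 0.26, and 0.11 without replicate 2, and the groups overlapped. *Sesn2*, a leucine-sensing inhibitor of mTORC1, and *Ppp1r15a*, the phosphatase subunit Gadd34 that dephosphorylates eIF2, stayed close to 0. The ratios of *Sesn2* were -0.12, -0.02 and 0.22 and those of *Ppp1r15a* were -0.09, 0.13 and -0.00, with means of 0.03 ± 0.11 and 0.01 ± 0.09.

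Other genes of *mdx* replicate 2 stood out alongside *Psat1*, *Atf3* and *Asns*. The summed linear level of the 18 measured of 19 macrophage markers was 61640, 126500 and 38830 in the *mdx* muscles, replicate 2 being the highest, and 57160, 27430 and 36100 in their N1ICD-*mdx* partners, and their median ratio was -0.72, or -0.13 without replicate 2. *Cd163*, the marker not kept, was above background on 2 arrays in each group. The sum of the 9 measured of 12 proliferation markers was 3827, 10270 and 2813 against 4591, 2515 and 2212. *Chac1*, in contrast, was at its lowest *mdx* level in this muscle. In whole muscle, more cells of a type and more RNA per cell cannot be told apart, and the part of these cells in the members' values was not tested.

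Counted over the members, 0 of 10 passed 1.5-fold with an unadjusted p under 0.05 in either direction, where 0.474% of all genes were higher and 0.482% lower at that threshold. These are 65 and 66 genes, and the split became 271 and 173 with processed signals, 30 and 391 with median centring, 57 and 0 with trend and robust variances and 52 and 15 with the methods' t-test. The N1ICD-*mdx* and *mdx* muscles did not overlap for 2 members that were higher (*Atf4* and *Trib3*), against 7.62% of all genes, and for 0 that were lower, against 6.33%. By the second *Atf4* probe the groups overlapped, and the mean ratio of *Trib3* became -0.03 with median centring. The median ratio of the 10 genes was 0.02, with 0.01, 0.17 and 0.10 on arrays 1, 2 and 3, beside -0.00 over all genes. *Chac1* and *Psat1*, the members with the widest ratios, had opposite signs on array 2.

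The rest of the pathway was followed in 8 lists, with 123 genes measured besides the members. At 1.5-fold and an unadjusted p under 0.05 limma counted 4 of them, *Chchd2* and *Chchd10* higher and *Cebpa* and *Ddit4* lower. Over all genes 0.474% were higher and 0.482% lower at that threshold. At an adjusted p under 0.05 limma counted 0 of the 123 (each of the 4 had an adjusted p of 0.704). Upstream of Atf4, 0 of 15 kinases, subunits and exchange factors of eIF2 were counted in either direction, with a median of 0.02. *Eif2ak4*, the amino acid sensor Gcn2, had ratios of 0.07, -0.40 and -0.20. *Eif2s1*, which carries the phosphorylated site, had -0.03, -0.36 and -0.27. Of 12 bZIP partners and Tribbles genes 1 was lower, *Cebpa*, a C/EBP factor, with ratios of -0.40, -1.62 and -0.42, and their median was 0.04. The mean of *Cebpa* was -0.81 and became -0.41 without replicate 2, under 1.5-fold, and it was not counted without replicate 1 either. Nor was *Cebpa* counted with trend and robust variances, with array quality weights, with the filter on dim probes dropped or by the methods' t-test. The other C/EBP factors in the list were positive on array 2. *Cebpb* had ratios of -0.25, 0.97 and -0.00, *Cebpd* of -0.38, 0.28 and -0.45 and *Cebpg* of 0.03, 0.12 and 0.09.

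Among the genes that Atf4 is known to switch on, the enzymes of serine, glycine and one-carbon metabolism included 14 measured of 15, 0 counted and a median of -0.06. *Phgdh*, the first enzyme of the serine pathway, had levels of 8.47, 9.63 and 7.73 in the *mdx* and 8.05, 7.72 and 7.57 in the N1ICD-*mdx* muscles. *mdx* replicate 2 was again the highest muscle, and the ratios were -0.42, -1.91 and -0.16. *Psph*, the last enzyme of that pathway, had ratios of 0.43, 0.08 and 0.17. Of the amino acid transporters 11 of 13 were measured, 0 were counted and the median was -0.00. *Slc38a4* had ratios of 0.44, 0.99 and 0.23 and *Slc1a4* of 0.49, 0.09 and 0.36, both positive on each array, whereas *Slc38a1* had 0.11, -1.39 and -0.50. *Slc7a11*, the cystine transporter, and *Fgf21*, a hormone released in muscle mitochondrial stress, were above background on 0 arrays in either group.

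Of the other Atf4 targets 28 of 30 were measured, with a median of -0.06. *Ddit4*, an inhibitor of mTORC1, was the 1 counted, as lower, with levels of 12.65, 11.49 and 12.62 in the *mdx* and 11.65, 11.24 and 11.75 in the N1ICD-*mdx* muscles. Like *Chac1*, it was lowest among the *mdx* muscles in replicate 2, but its ratios of -1.001, -0.25 and -0.87 kept their sign there. Its mean of -0.71 was counted without replicate 2 (-0.94), but not without replicate 1 (-0.56) or replicate 3 (-0.63). Nor was *Ddit4* counted with trend and robust variances, without the replicate block or by the methods' t-test. *Stc2*, a secreted stress protein, had ratios of -0.32, -0.37 and -0.34 and *Vegfa*, the endothelial growth factor, had 0.31, 0.89 and 0.49, both with mean ratios under 1.5-fold. Naming genes by smallest p favors those of constant sign. *Fbxo32*, described above, is in this list as well. Its ratios of -1.06, 0.87 and -1.15 turned as those of *Chac1* did, and it was not counted. Negative ratios were found in 20, 12 and 20 of the 28 on arrays 1, 2 and 3. Over all 13702 genes these numbers were 6726, 6794 and 6825.

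The genes next to *Chac1* in glutathione metabolism did not turn with it. Of 11 measured (13 listed) 0 were counted, and their median was 0.01. *Chac2*, its paralog, had levels of 9.11, 8.64 and 8.98 in the *mdx* and 9.19, 9.10 and 9.17 in the N1ICD-*mdx* muscles, and ratios of 0.08, 0.47 and 0.18. *Gclm*, a subunit of the enzyme that starts glutathione synthesis, had -0.34, -0.03 and -0.21.

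The endoplasmic reticulum chaperones and unfolded protein response genes (20 of 22 measured, 0 counted) had a median of -0.24 that came largely from array 2, with 0.00, -0.80 and -0.15 on the 3 arrays and -0.07 without replicate 2. *Syvn1*, a ligase of protein degradation at that membrane, had -0.24, -0.44 and -0.21 and *Dnajc3*, an inhibitor of the eIF2 kinase Perk, had -0.12, -0.49 and -0.36. In the mitochondrial stress list (12 measured, median 0.06) the 2 counted genes encode small proteins of the intermembrane space. *Chchd2* had ratios of 0.80, 0.98 and 0.57 and *Chchd10* of 0.42, 1.40 and 0.57, both positive on each array, and without replicate 2 their means were 0.69 and 0.49, the second of them under 1.5-fold. With processed signals neither reached 1.5-fold, at 0.45 and 0.49, and with array quality weights *Chchd10* did not, at 0.57. Of 14 fiber markers 4 were counted as higher, *Acta1*, *Myh1*, *Tnni2* and *Mb*, against 0.474% of all genes. The median of the 14 was 0.26, or 0.16 without replicate 2, and 3, 1 and 5 of them had negative ratios on arrays 1, 2 and 3.

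**Figure D4:**
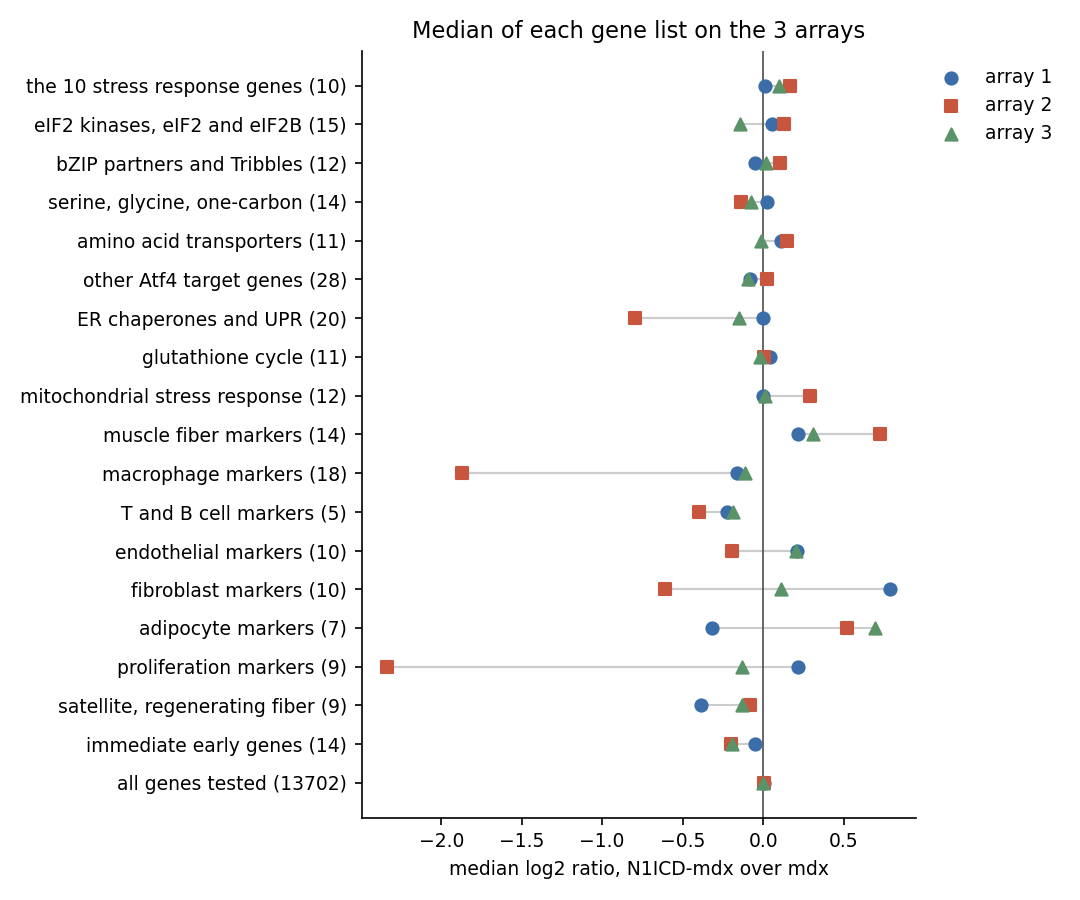
Median log2 ratio of N1ICD-*mdx* over *mdx* muscle of each gene list on array 1 (circle), array 2 (square) and array 3 (triangle), with the number of genes measured in brackets. The 10 members sit at 0.01, 0.17 and 0.10, close to all genes, while macrophage and proliferation markers reach -1.87 and -2.34 on array 2.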

How the data were processed

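The authors hybridized total RNA, extracted with Trizol and labeled by low-input amplification, and extracted the scans with Agilent Feature Extraction (11.5 in the labels and 11.5.1.1 in the headers). For each spot and dye the deposited intensity values used here were the median signal and the median local background, neither of them normalized. Processed signals in the same files were an alternative. All 3 arrays lay on 1 slide and were scanned once, so no batch could be separated within the comparison.

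Signals were background-corrected by normexp (offset 50) and normalized by loess within arrays, control spots at weight 0, with limma 3.58.1 in R 4.3.3 (tables read with data.table, version 1.17.8). Outlier spots by the software's flags (1513) were dropped before averaging the spots of each probe. Probes were named through RefSeq accessions (GRCm38.p6), which named 28026 of 55681. Because the probes were designed against an older mouse assembly, the coordinates given are those of RefSeq promoters. A probe was kept if 1 or both dyes were flagged well above background on every array (17810 named probes). Each of 13702 genes was read by its brightest kept probe, 3436 of them having more than 1. Levels are channels after Aquantile scaling. limma fitted the 3 within-array log2 ratios, with Benjamini-Hochberg adjustment over all genes. "Counted" means 1.5-fold or more with an unadjusted p under 0.05, the thresholds of the methods. The number of arrays limits the precision, and p-values measure the spread between these animals.

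The 2 muscles of a replicate number share an array, which pairs them, and the ratio keeps that pairing. Deviations of same-numbered muscles from their group means correlated at -0.02, -0.30 and 0.33 for replicates 1, 2 and 3.

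The members and lists were chosen with earlier results of these data known. Named genes were all 10 members with every probe, up to 4 genes of smallest p in each list, and the 6 genes nearest to *Chac1*, without RIKEN or Gm names. *Chchd10*, *Chac2*, *Cebpa* and *Ddit4* fall under this rule. *Ckm*, the Notch genes, *Slc7a11*, *Fgf21*, *Cd163*, *3300002I08Rik* and the genes turned on array 2 were named outside the rule, after their values were seen. So were *Cebpb*, *Cebpd* and *Cebpg*. Alternatives were an offset of 10, no background correction, the processed signals, median centring, the filter dropped or required of both dyes, averaging a gene's probes, trend and robust variances, array quality weights, the 6 channel values fitted without the replicate block or by the methods' t-test, and each replicate left out.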

Additional observations from a re-analysis of the deposited data

How the results depend on the processing

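*Chac1* was negative on arrays 1 and 3 and positive on array 2 under every background correction, normalization and filter tried, and its mean was -1.98 with array quality weights, which were 1.1, 0.24 and 3.78 for arrays 1, 2 and 3. Median centring moved the median of all genes to -0.18, and with it the member median from 0.02 to -0.21, *Trib3* to -0.03, *Sesn2* to -0.18 and *Ppp1r15a* to -0.23. The count of genes at 1.5-fold and an unadjusted p under 0.05, 131 as analysed, was 444 with processed signals, 222 with an offset of 10, 421 with median centring, 57 with trend and robust variances, 206 with array weights, 67 with the methods' t-test and from 181 to 204 when a replicate was left out. At an adjusted p under 0.05 it was 0 as analysed, 1 with array weights and from 0 to 3 with a replicate left out. Of the 123 related genes, 4 as analysed, 11 were counted with median centring, 2 with trend and robust variances and from 3 to 6 with a replicate left out, where the member median ran from 0.02 to 0.10. With no replicate block, the pairing by array set aside, 124 genes were counted, 1 passed the adjusted threshold, 3 related genes were counted and the member median was 0.02. For single members, 124 values under the alternatives differed from the main value by less than the replicate spread and 6 by more, and for list medians these numbers were 202 and 19. The member count is no measure of robustness. Both changes of the filter, trend and robust variances and no replicate block left every member ratio as it was. The spread was also each gene's own SD over the arrays. For *Chac1* it was 2.59, so even -1.98 with array quality weights was within it. In the 6 were *Trib3* at 0.33 with processed signals and 0.24 without background correction, and *Atf4* at 0.14 over both its probes. Leaving out a replicate turned the mean of *Chac1* (0.05 without replicate 1 and 0.01 without replicate 3), *Asns* (0.11 without replicate 2), *Atf3* (0.30 without replicate 2), *Ppp1r15a* (-0.05 without replicate 2) and *Sesn2* (-0.07 without replicate 3). *Psat1* on array 2 is limited by signal, with 62.5 in Cy5 at its brighter probe.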
